A study of Mus musculus with 12 samples.

Results

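Triglyceride is built in fat cells from activated fatty acids and a glycerol backbone, and 9 mouse genes that carry out this assembly or supply its glycerol were followed here through a fat pad that lacked or kept Cdk7 and was or was not exposed to CL. The genes were Gpam, Agpat2, Lpin1, Dgat1, Dgat2 and Mogat1 for the assembly, and Pck1, Gpd1 and Gk for the supply. They were chosen by symbol from the 53379 gene identifiers that were counted in every library, and each of the 9 symbols matched 1 identifier. All 9 were among the 16554 genes that passed the filter on low counts.

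RNA was sequenced from perigonadal white fat, a visceral pad, of C57BL/6 mice aged 9 weeks that were fed standard chow. The groups were mice with an adipose-tissue knockout of Cdk7 given CL (ko CL) or saline (ko saline) by injection for 7 days, and control littermates given CL (wt CL) or saline (wt saline) in the same way. All mice were killed at zeitgeber time 9. Cdk7 encodes the kinase subunit of TFIIH, a general transcription factor. The labels name the drug only as CL, which in this field abbreviates an agonist of the beta-3-adrenergic receptor. Each of the 4 groups had 3 libraries, and each library was made from the pooled RNA of 2 mice, so that p-values reflect variation among pools rather than among single animals. Which promoter drove the deletion, and which alleles the littermates carried, is not stated in the labels, and the pads hold many cells that an adipose deletion does not reach.

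In the glycerol phosphate route, an acyltransferase of the outer mitochondrial membrane, Gpam, adds the first fatty acid to glycerol 3-phosphate. Agpat2 adds the next one to make phosphatidic acid, the phosphatase Lpin1 removes the phosphate, and Dgat1 or Dgat2 adds the last fatty acid to diacylglycerol. Mogat1 makes diacylglycerol from monoacylglycerol instead. White fat has long been described as using little free glycerol and as low in the glycerol kinase Gk. Its glycerol 3-phosphate is then said to come mainly from glucose, or from lactate and amino acids through Pck1, the entry enzyme of glyceroneogenesis. Both of these routes pass through Gpd1. Beta-3-adrenergic stimulation releases fatty acids from the droplets and is known to raise both their oxidation and their re-esterification.

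Libraries held 21892817 to 27985019 gene counts. Cdk7 was at 11.02 to 23.56 CPM (gene counts made relative to the library total and adjusted by TMM, a trimmed mean of ratios between libraries) in the 6 ko libraries and at 29.29 to 35.43 CPM in the 6 wt libraries, without overlap (exact two-sided permutation p = 0.00216, the smallest these numbers allow). Within ko it was at 18.1 to 23.6 CPM with CL and 11.02 to 11.7 CPM with saline. A genotype field in the labels goes against the titles of 6 of the 12 libraries, and the titles were used. Every one of 15 adipocyte markers was detected in every library. The summed level of these markers was 12977 to 21207 CPM in ko CL and 26173 to 28934 CPM in ko saline, against 53012 to 56908 CPM in wt CL and 46687 to 52830 CPM in wt saline. Car3 and Fabp4 were the largest parts, with means of 9131 and 7010 CPM in ko saline and 21890 and 11430 CPM in wt saline. Under saline 10 of the 15 were called lower in ko and 5 were not called. Adipoq had means of 3371 CPM in ko saline and 3334 CPM in wt saline, and Lep of 1155 and 1203 CPM. The summed level of 12 macrophage markers was 10764 to 15695 CPM in ko CL and 1297 to 1363 CPM in ko saline, against 728 to 870 CPM in wt CL and 1284 to 1352 CPM in wt saline. The library ko CL 1 had both the lowest adipocyte sum and the highest macrophage sum. In such bulk tissue, fewer fat cells and less RNA of a gene per fat cell cannot be told apart, which touches every comparison of ko with wt below, the CL response in ko and the difference of the responses. Under CL all 6 endothelial markers were lower and all 8 fibroblast and progenitor markers higher in ko than in wt. Ciliated epithelial markers summed to 65.1 to 83.0 CPM in ko saline, against 5.40 to 32.0 CPM in wt saline. The part of these in the results was not tested.

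CL raised most of these genes in wt pads, while in ko pads Gpd1 was the 1 gene called higher. In ko pads 1 of the 9 was higher with CL than with saline and 4 were lower at an adjusted p under 0.05, where 54.6% of all tested genes were called, 27.2% higher and 27.5% lower. Without ko CL 1 the ko counts were 3 higher and 4 lower, where 24.5% of tested genes were higher and 26.4% lower. Relative to adipocyte markers, as given further on, the ko counts were 5 higher and 2 lower, where 74.1% of tested genes were higher and 5.15% lower. In wt pads 7 of the 9 were higher with CL and none was lower, where 36.8% of tested genes were called, 19.6% higher and 17.1% lower. With libraries scaled by their totals alone the wt counts were 5 higher and 1 lower, where 8.03% of tested genes were higher and 48.6% lower.

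Under CL most of the 9 genes were lower in ko than in wt pads. Between ko and wt under CL, 8 of the 9 were lower and none was higher, where 56.8% of tested genes were called, 27.6% higher and 29.3% lower. Relative to adipocyte markers, however, 5 were higher and 4 lower, where 90.0% of tested genes were higher and 1.04% lower. Between ko and wt under saline, 1 gene was higher and 4 were lower, where 14.4% of tested genes were called, 7.99% higher and 6.45% lower. With scaling by totals alone the saline split was 2 higher and 4 lower, where 22.6% of tested genes were higher and 3.06% lower. Relative to the markers it was 4 higher and 1 lower, where 73.6% of tested genes were higher and 0.93% lower. The CL response itself was more negative in ko than in wt for 8 of the 9 genes, where 45.4% of tested genes were called, 21.8% more positive and 23.6% more negative. Relative to the markers this response was more negative for 3 and more positive for 1, where 1.82% of tested genes were more negative and 61.9% more positive. The median log2 fold change of the 9 genes was -0.32 for CL in ko and 0.84 for CL in wt, and -1.19 for ko against wt under CL and -0.41 under saline. The median of all tested genes lay between -0.012 and 0.0030 in these 4 comparisons.

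**Figure D1:**
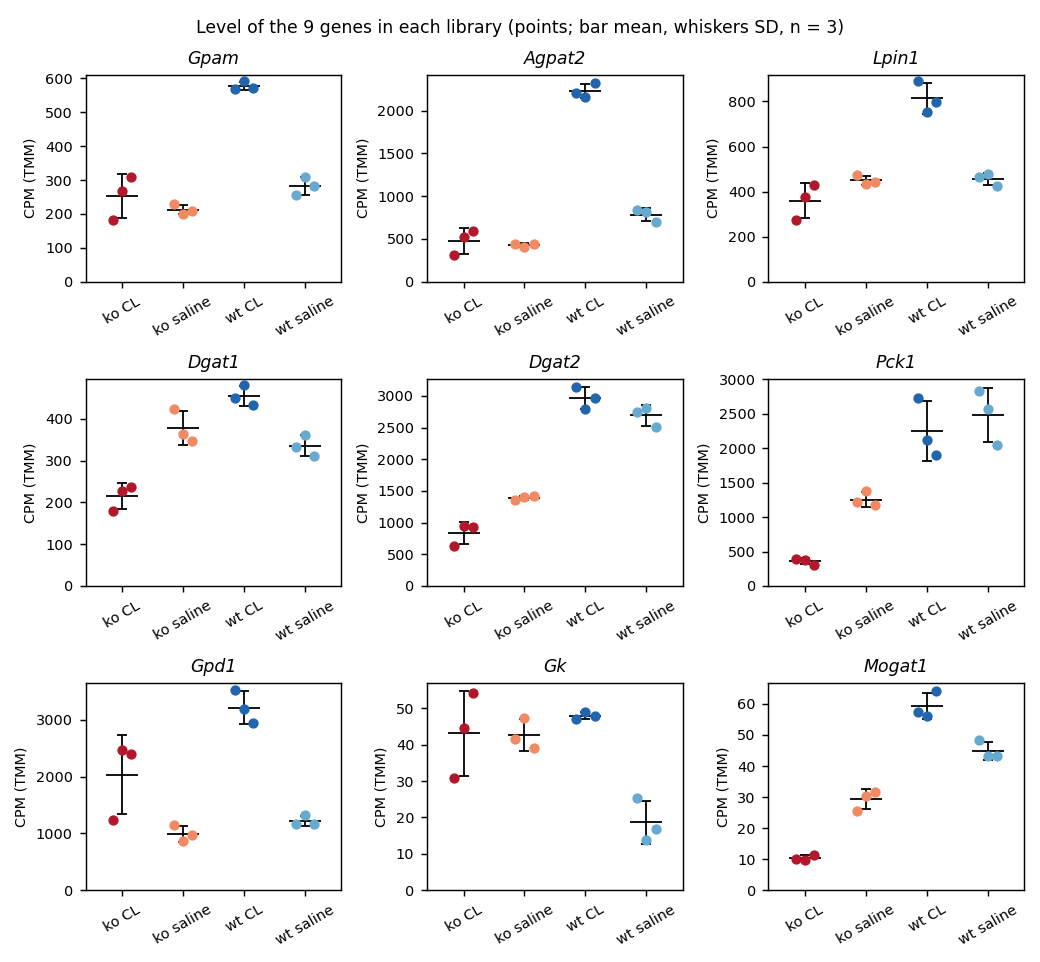
The level of each of the 9 genes in CPM on a linear axis that starts at 0 is shown for the 12 libraries, 1 point per library with a bar for each group's mean and whiskers for its SD (n = 3), with the ko groups left of the wt groups. The wt CL points stand above all others for Gpam, Agpat2, Lpin1, Dgat1, Gpd1 and Mogat1, and the ko CL points lie lowest for Dgat1, Dgat2, Pck1 and Mogat1.

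**Figure D2:**
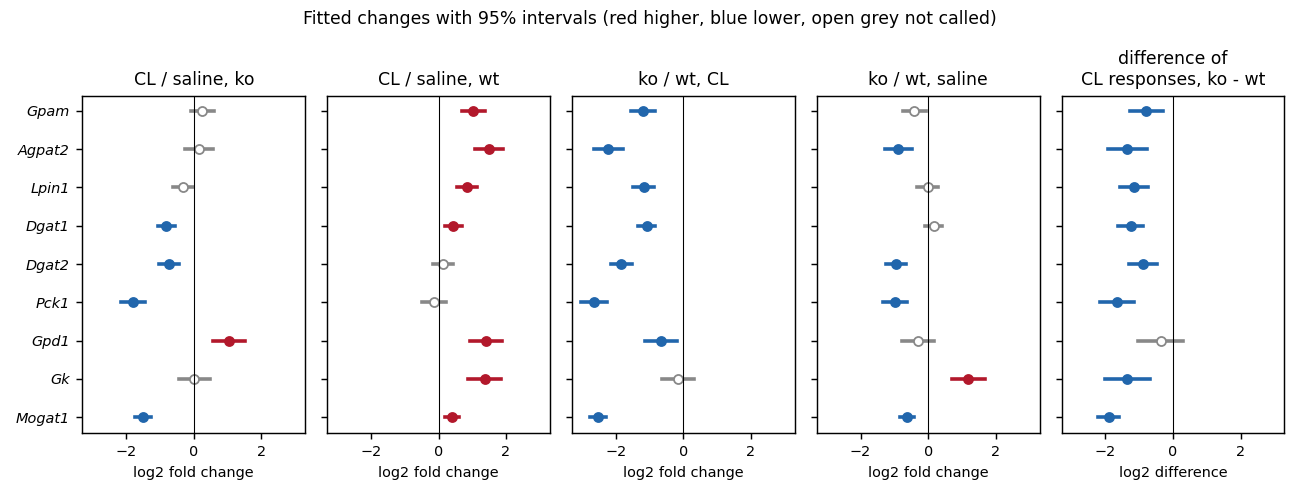
The log2 fold change of each gene with its approximate 95% interval is shown for CL against saline in ko and in wt, for ko against wt under CL and under saline, and for the difference of the CL responses, with filled points where a change was called. The ko against wt values under CL lie at or below -0.66 for every gene except Gk, at -0.16, under the scaling by TMM shown here.

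The first 3 enzymes of the glycerol phosphate route rose with CL in wt pads, and the response of each was smaller or opposite in ko pads by the test of the difference. Gpam (ENSMUSG00000024978, chromosome 19, 55067268 to 55127238, minus strand of GRCm38) was at 181, 267 and 309 CPM in ko CL and at 229, 201 and 209 CPM in ko saline, against 568, 591 and 572 CPM in wt CL and 255, 309 and 283 CPM in wt saline. The wt CL libraries stood above the other 9. The ko saline libraries lay below the wt saline ones, and ko CL overlapped both. The log2 fold change of Gpam with CL was 0.24 ± 0.15 in ko (SE, adjusted p = 0.18) and 1.03 ± 0.15 in wt (adjusted p = 0.000177), and the responses differed by -0.79 ± 0.21 (adjusted p = 0.00809). Against wt, Gpam in ko was lower at -1.19 ± 0.15 under CL (adjusted p = 1.71e-05), and under saline it stood at -0.41 ± 0.15 and was not called (adjusted p = 0.0852). The saline difference was called with DESeq2 (adjusted p = 0.0475), with no filter on low counts (0.0404), in a fit of only the groups compared (0.0173) and in a fit without ko CL 1 (0.00687). It was not called with scaling by totals alone (-0.25, adjusted p = 0.232). Relative to adipocyte markers it had the opposite sign and was not called (0.24, adjusted p = 0.103).

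Agpat2, the acyltransferase whose loss in humans causes a congenital lack of fat, showed the largest CL response of the 9 in wt. The gene (ENSMUSG00000026922, chromosome 2, 26593057 to 26604417, minus strand) was at 308, 523 and 597 CPM in ko CL and 437, 402 and 442 CPM in ko saline, against 2203, 2161 and 2321 CPM in wt CL and 840, 814 and 701 CPM in wt saline. All 6 ko libraries lay below all 6 wt libraries. Its change with CL in ko was 0.16 ± 0.18 (adjusted p = 0.477), with an approximate 95% interval of -0.25 to 0.57, and in wt it rose by 1.50 ± 0.18 (adjusted p = 4.56e-05). The responses differed by -1.35 ± 0.25 (adjusted p = 0.000805). The ko against wt difference of Agpat2 was -2.23 ± 0.18 under CL (adjusted p = 4.35e-07), that is 4.68-fold lower, and -0.88 ± 0.18 under saline (adjusted p = 0.00765). Without ko CL 1, the library with the highest macrophage sum, both Gpam and Agpat2 were called higher with CL in ko, at 0.42 (adjusted p = 0.00249) and 0.37 (adjusted p = 0.00467).

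Under TMM the CL change in ko pads was not called for Gpam, Agpat2 or Lpin1, and it lay above 0 for Gpam and Agpat2. For Lpin1, the phosphatidate phosphatase that is also known as a partner of nuclear receptors, it lay below 0. The gene (ENSMUSG00000020593, chromosome 12, 16535669 to 16610966, minus strand) was at 276, 374 and 431 CPM in ko CL and 472, 432 and 443 CPM in ko saline, against 889, 755 and 799 CPM in wt CL and 463, 476 and 427 CPM in wt saline. In ko the 3 CL values lay below the 3 saline values, but the change of -0.32 ± 0.13 missed the threshold (adjusted p = 0.053). It was called without ko CL 3 (-0.49, adjusted p = 0.00565), with DESeq2 (adjusted p = 0.026), with no filter (adjusted p = 0.026) and with scaling by totals alone (adjusted p = 0.0155). Without ko CL 1, the lowest of the 3 CL values, it was -0.18 and not called (adjusted p = 0.121). Relative to adipocyte markers it was 0.55 and called higher (adjusted p = 0.00066). In wt Lpin1 rose with CL by 0.84 ± 0.13 (adjusted p = 0.000307). Under CL it was lower in ko at -1.18 ± 0.13 (adjusted p = 6.08e-06), whereas under saline the genotypes overlapped, with a difference of -0.02 ± 0.13 (adjusted p = 0.945) and an interval of -0.32 to 0.28. The responses differed by -1.16 ± 0.18 (adjusted p = 0.000248).

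The 2 enzymes of the last step differed from each other. Dgat1 (ENSMUSG00000022555, chromosome 15, 76502015 to 76511953, minus strand), which also re-esterifies fatty acids released by lipolysis, was at 179, 227 and 237 CPM in ko CL and 424, 363 and 347 CPM in ko saline, against 449, 481 and 433 CPM in wt CL and 334, 361 and 311 CPM in wt saline. The genotypes overlapped under saline, and with CL the ko values fell while the wt values rose, with log2 fold changes of -0.82 ± 0.11 in ko (adjusted p = 4.25e-05) and 0.44 ± 0.11 in wt (adjusted p = 0.00727). With libraries scaled by their totals alone, the rise in wt was 0.12 and was not called, and the ko against wt difference under saline, 0.17 ± 0.11 here (adjusted p = 0.325), was called at 0.33 (adjusted p = 0.0472). Under CL Dgat1 was lower in ko at -1.09 ± 0.11 (adjusted p = 2.73e-06), and the responses differed by -1.26 ± 0.16 (adjusted p = 3.55e-05).

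Dgat2 (ENSMUSG00000030747, chromosome 7, 99153658 to 99182719, minus strand), the acyltransferase tied to new triglyceride synthesis at droplets, was at 628, 941 and 926 CPM in ko CL and 1353, 1405 and 1418 CPM in ko saline, against 3142, 2791 and 2973 CPM in wt CL and 2752, 2808 and 2510 CPM in wt saline. It was lower in ko under both treatments, at -1.84 ± 0.13 under CL (adjusted p = 1.39e-07) and -0.95 ± 0.13 under saline (adjusted p = 0.000883). In ko it fell with CL by 0.74 (SE 0.13, adjusted p = 0.000376), while wt CL and wt saline overlapped, with a change of 0.14 ± 0.13 (adjusted p = 0.419). The responses differed by -0.89 ± 0.18 (adjusted p = 0.0017). Because the genes of 1 library share its scaling, the ratio of Dgat2 to Dgat1 per length of exon does not depend on it. This ratio, chosen after the values were seen, was 3.48, 4.11 and 3.88 in ko CL and 3.17, 3.83 and 4.05 in ko saline, against 6.93, 5.75 and 6.80 in wt CL and 8.17, 7.71 and 7.99 in wt saline. The 6 ko libraries lay below the 6 wt libraries.

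Mogat1, the monoacylglycerol acyltransferase, was a low gene with a tight spread. The gene (ENSMUSG00000012187, chromosome 1, 78510991 to 78538173, plus strand) was at 9.91, 9.68 and 11.5 CPM in ko CL and 25.6, 30.4 and 31.7 CPM in ko saline, against 57.5, 56.1 and 64.0 CPM in wt CL and 48.2, 43.3 and 43.2 CPM in wt saline. No 2 groups overlapped, in the order ko CL, ko saline, wt saline, wt CL. It fell with CL by 1.50 in ko (SE 0.10, adjusted p = 7.56e-08) and rose by 0.40 ± 0.09 in wt (adjusted p = 0.00411), although the rise in wt was 0.08 and was not called with libraries scaled by their totals alone and 0.39 and not called (adjusted p = 0.0846) relative to adipocyte markers. It was lower in ko at -2.52 ± 0.10 under CL (adjusted p = 1.21e-09) and -0.62 ± 0.09 under saline (adjusted p = 0.00129). The difference of the responses, -1.90 ± 0.13 (adjusted p = 3.38e-07), was larger in size than that of any other of the 9 genes.

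Among the supply genes, Pck1, the cytosolic phosphoenolpyruvate carboxykinase, had the largest ko against wt differences in the direction of lower. The gene (ENSMUSG00000027513, chromosome 2, 173153048 to 173159273, plus strand) was at 391, 381 and 306 CPM in ko CL and 1213, 1374 and 1170 CPM in ko saline, against 2730, 2117 and 1897 CPM in wt CL and 2831, 2565 and 2050 CPM in wt saline. Both ko groups lay below both wt groups, and the wt groups overlapped. In ko it fell with CL by 1.80 (SE 0.16, adjusted p = 8.71e-07). In wt the change with CL was -0.14 ± 0.15 (adjusted p = 0.491), and it was called at -0.46 (adjusted p = 0.0238) with scaling by totals alone. The CL responses of Pck1 differed by -1.66 ± 0.22 (adjusted p = 5.45e-05). Relative to wt it was lower at -2.65 ± 0.16 under CL (adjusted p = 2.82e-08) and -0.99 ± 0.15 under saline (adjusted p = 0.0018).

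Gpd1 is the cytosolic glycerol 3-phosphate dehydrogenase that reduces dihydroxyacetone phosphate. Under TMM with all libraries it was the 1 gene of the 9 called higher with CL in both genotypes. The gene (ENSMUSG00000023019, chromosome 15, 99717515 to 99725005, plus strand) was at 1234, 2471 and 2407 CPM in ko CL and 1141, 873 and 964 CPM in ko saline, against 3518, 3183 and 2952 CPM in wt CL and 1168, 1329 and 1160 CPM in wt saline. Each CL group lay above the saline group of its genotype, although ko CL 1 stood far below the other two. The rise was 1.04 ± 0.21 in ko (adjusted p = 0.00098) and 1.40 ± 0.21 in wt (adjusted p = 0.00023), and the difference between them, -0.36 ± 0.29 with an interval of -1.03 to 0.31, was not called (adjusted p = 0.335). Relative to adipocyte markers Gpam, Agpat2, Lpin1 and Gk were called higher with CL in both genotypes as well, as were Gpam and Agpat2 without ko CL 1. Under saline Gpd1 in ko stood at -0.30 ± 0.21 against wt (adjusted p = 0.371). Under CL it was lower in ko at -0.66 ± 0.21 (adjusted p = 0.0149), a call lost without wt CL 1 (-0.59, adjusted p = 0.0516), with only the groups compared (adjusted p = 0.0568) and with scaling by totals alone (-0.27, adjusted p = 0.248).

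The ratio of Gpd1 to Pck1 per length, again chosen after the values were seen, was 3.66, 7.50 and 9.11 in ko CL and 1.09, 0.735 and 0.954 in ko saline, against 1.49, 1.74 and 1.80 in wt CL and 0.478, 0.600 and 0.655 in wt saline. The 4 groups did not overlap, and within each genotype the CL group was the higher.

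Gk, the kinase that phosphorylates free glycerol, was under TMM the 1 gene of the 9 that was called higher in ko under saline. The gene (ENSMUSG00000025059, chromosome X, 85701937 to 85776819, minus strand) was at 30.8, 44.4 and 54.1 CPM in ko CL and 41.5, 47.4 and 39.1 CPM in ko saline, against 47.1, 48.9 and 48.0 CPM in wt CL and 25.3, 13.8 and 16.8 CPM in wt saline. The wt saline libraries stood below the other 9, which overlapped. The change of Gk with CL in ko was 0.01 ± 0.20 (adjusted p = 0.959) with an interval of -0.45 to 0.47, while in wt it rose by 1.36 ± 0.21 (adjusted p = 0.000301), and the responses differed by -1.35 ± 0.29 (adjusted p = 0.00215). The ko against wt difference was -0.16 ± 0.20 under CL (adjusted p = 0.524) and 1.19 ± 0.21 under saline (adjusted p = 0.00339).

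**Figure D3:**
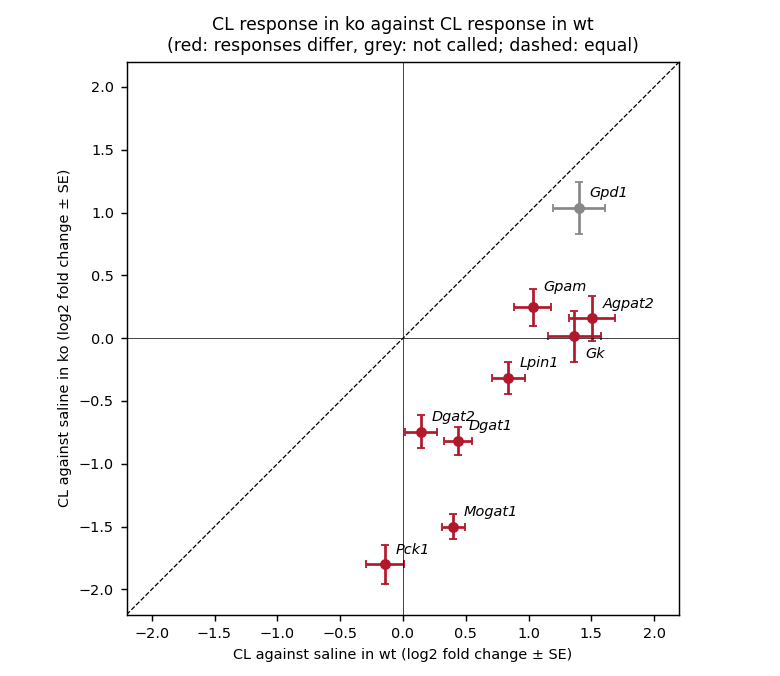
The log2 fold change with CL in ko of each gene is plotted against that in wt, with standard errors as bars and a line of equal response. Gpd1 lies nearest the line, at 1.04 in ko and 1.40 in wt, and Pck1 (-1.80) and Mogat1 (-1.50) lie lowest in ko.

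Levels can be compared between genes only per length, as CPM per kilobase of exon. On this scale Gpd1 led in ko CL at 688, followed by Dgat2 at 270, Agpat2 at 224 and Pck1 at 105. In ko saline Dgat2 led at 451, followed by Pck1 at 365 and Gpd1 at 335. In wt CL Gpd1 and Agpat2 led at 1087 and 1046. In wt saline the means ran from 873 for Dgat2, 724 for Pck1, 412 for Gpd1 and 369 for Agpat2 through 110 for Dgat1, 47.1 for Lpin1 and 42.3 for Gpam to 28.8 for Mogat1. Gk was lowest in all 4 groups, at 5.57 in ko CL and 5.51 in ko saline, against 6.20 in wt CL and 2.41 in wt saline. The summed CPM of the 9 genes was 3238, 5240 and 5277 in ko CL and 5335, 5129 and 5063 in ko saline, against 13604, 12185 and 12059 in wt CL and 8717, 8721 and 7503 in wt saline.

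The RefSeq promoter table of GRCm38.p6 held 6 of the 9 genes, all but Dgat1, Dgat2 and Gpd1. The stretch before the start of 3 of them is shown because they mark the range of the responses under TMM. Pck1 and Mogat1 had the most negative CL responses in ko, and Gk was the 1 member called higher in ko under saline. Capitals mark matches to any of 8 motifs searched in the 250 bases before the RefSeq start on both strands, here CGTCA, the reverse complement of TGACG, in Pck1, and CACGTG and CCGCCC, the reverse complement of GGGCGG, in Gk. Where the annotated gene begins before the RefSeq start, the stretch ends before it.
Pck1 (chr2:173152823-173153047, plus strand): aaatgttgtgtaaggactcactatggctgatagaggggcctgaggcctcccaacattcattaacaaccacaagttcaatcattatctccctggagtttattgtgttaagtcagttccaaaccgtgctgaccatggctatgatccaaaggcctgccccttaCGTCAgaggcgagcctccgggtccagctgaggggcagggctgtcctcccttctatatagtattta
Mogat1 (chr1:78510810-78510990, plus strand): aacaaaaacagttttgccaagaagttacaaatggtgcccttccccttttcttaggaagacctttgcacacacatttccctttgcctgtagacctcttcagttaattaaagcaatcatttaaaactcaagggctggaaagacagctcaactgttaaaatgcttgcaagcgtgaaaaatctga
Gk (chrX:85776820-85777069, minus strand): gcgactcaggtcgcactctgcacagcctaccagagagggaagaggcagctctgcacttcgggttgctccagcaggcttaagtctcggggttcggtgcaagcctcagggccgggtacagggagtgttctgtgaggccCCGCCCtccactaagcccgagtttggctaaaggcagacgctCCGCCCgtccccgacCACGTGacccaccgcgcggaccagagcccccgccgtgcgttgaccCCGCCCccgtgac

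TGACG is the core of the cAMP response element, and such an element in the Pck1 promoter is well known from the rat gene. In the mouse window it lay 90 to 86 bases before the RefSeq start. Of 32851 windows of the same length in the table, 17.77% hold these letters. Mogat1 held none of the 8 motifs in the searched window, and the remaining Pck1 match, a GC box (GGGCGG), lay 16 to 11 bases before the RefSeq start, past the stretch printed. Gk held the E-box CACGTG, found in 6.021% of windows, at 58 to 53 bases and 3 GC boxes. GGGCGG occurs in 32.74% of windows. Agpat2 held a pair of overlapping GC boxes. Lpin1 held 1 AGGTCA, the core bound by many nuclear receptors, found in 14.02% of windows. Gpam had 2 listed starts. The first held a CCAAT box (33.85% of windows), and the second held 2 TGACG, 1 AGGTCA and 1 GC box. TTGCNNAA (9.564% of windows), TATAAA (12.37%) and a direct repeat of AGGTCA with 1 base between (0.03348%) were not in any of the 7 windows. GC boxes that overlap were counted separately. These matches are letters in a window and describe no binding.

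Because adipocyte markers were lower in ko pads too, the comparisons were also made with each library scaled by its 15 adipocyte markers. All 15 of these markers were lower in ko than in wt under CL and 10 under saline, 12 were lower with CL in ko, and the CL response of 11 was more negative in ko than in wt, so the scaled values are relative to genes that change themselves. With it, the median of all tested genes moved to 1.57 for ko against wt under CL, 0.64 under saline, 0.90 for CL in ko, 0.89 for the difference of the responses and -0.02 for CL in wt. Under CL, 4 of the 9 genes were still lower in ko, Pck1 at -1.06, Mogat1 at -0.96, Agpat2 at -0.72 and Dgat2 at -0.31. Among all 16554 tested genes, 172 (1.04%) were lower and 14901 (90.0%) higher in ko under this scaling. The other 5 were higher in ko relative to the markers, Gk at 1.37, Gpd1 at 0.84, Dgat1 at 0.45, Lpin1 at 0.36 and Gpam at 0.33, all of them below the shift of the median. Under saline, where 73.6% of tested genes were higher and 0.93% lower, Dgat2 was the 1 of the 9 called lower (-0.31), and Gk (1.83), Dgat1 (0.82), Lpin1 (0.63) and Gpd1 (0.35) were higher, while Gpam (0.24), Mogat1 (0.02), Agpat2 (-0.24) and Pck1 (-0.34) were not called. With CL in ko 5 of the 9 were higher relative to the markers, where 74.1% of all tested genes were higher and 5.15% lower. These were Gpd1 (1.88), Gpam (1.11), Agpat2 (1.01), Gk (0.88) and Lpin1 (0.55), and Pck1 (-0.88) and Mogat1 (-0.59) were lower. Dgat1 (0.06) and Dgat2 (0.12), which fell with CL in ko under TMM, were not called. For the difference of the responses 61.9% of tested genes were more positive and 1.82% more negative. The CL response was still more negative in ko for Mogat1 (-0.98, adjusted p = 0.00113), Pck1 (-0.72, adjusted p = 0.0255) and Agpat2 (-0.48, adjusted p = 0.0411), and was more positive for Gpd1 (0.49, adjusted p = 0.0431). The differences of Gpam (0.08), Dgat2 (-0.0032), Lpin1 (-0.27), Dgat1 (-0.37) and Gk (-0.47) were not called. The part of the macrophage signal in the CL results was not tested either.

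**Figure D4:**
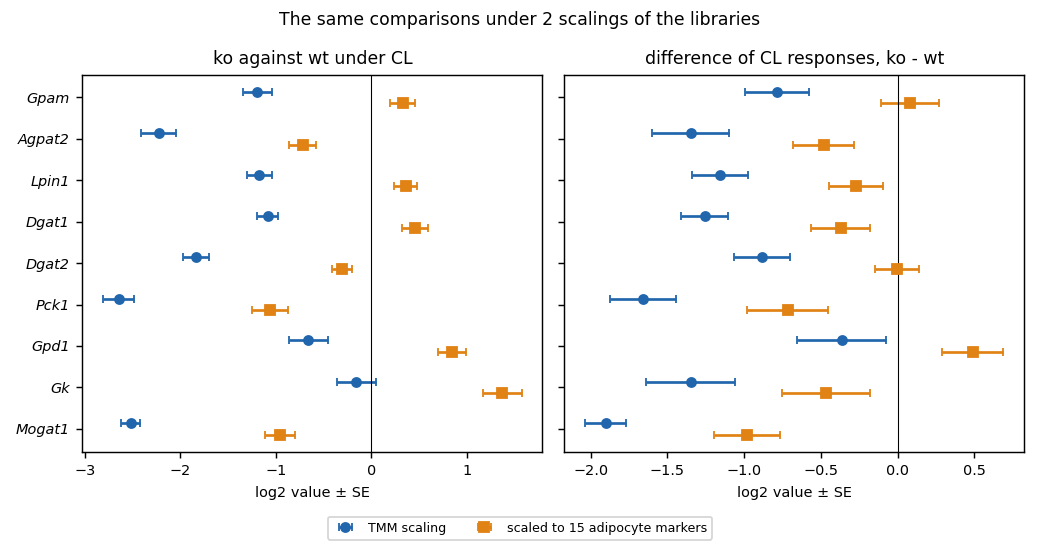
Log2 values with standard errors are shown for ko against wt under CL and for the difference of the CL responses, under TMM scaling and under scaling by 15 adipocyte markers. On the left the marker-scaled values of Agpat2, Dgat2, Pck1 and Mogat1 stay below 0, and those of the other 5 genes lie above it. These 5 values lie below the median of all tested genes under that scaling.

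The counts of the further lists stand against shares of all tested genes of 27.6% higher and 29.3% lower for ko against wt under CL, 27.2% and 27.5% for CL in ko, 19.6% and 17.1% for CL in wt, and 7.99% and 6.45% for ko against wt under saline. Of 18 further esterification genes 14 were tested, and Lpin2 had 0 counts in every library. Whether these 0 counts reflect absent RNA or the way reads were counted was not tested. Of the 14, 1 was higher and 8 were lower in ko than in wt under CL, with a median log2 fold change of -0.28. The 1 higher was Agpat4, at 1.12 ± 0.12 (adjusted p = 3.41e-06), an isoform of Agpat2 that rose with CL in ko (0.76 ± 0.11, adjusted p = 8.88e-05) and fell in wt (-0.46 ± 0.12, adjusted p = 0.00887). Gpat4, a glycerol phosphate acyltransferase of the endoplasmic reticulum, was lower in ko at -0.87 ± 0.09 (adjusted p = 4.8e-06), as was Mogat2 at -1.75 ± 0.22 (adjusted p = 1.6e-05). With CL in ko 2 were higher and 6 lower, in wt 6 were higher and 2 lower, and under saline 2 were higher and 2 lower in ko than in wt.

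Of 17 tested genes for glycerol 3-phosphate and glycerol supply, 5 were higher and 10 were lower in ko than in wt under CL, with a median of -0.39. Aqp7, the glycerol channel of fat cells, was lower at -1.26 ± 0.09 (adjusted p = 1.08e-07), and Pcx, which makes oxaloacetate upstream of Pck1, was lower at -1.40 ± 0.15 (adjusted p = 3.51e-06). The aspartate aminotransferases Got1 (1.16 ± 0.10, adjusted p = 5.39e-07) and Got2 (0.95 ± 0.08, adjusted p = 4.74e-07) were higher. With CL in ko 5 of the 17 were higher and 3 lower. In wt 11 were higher and 3 lower, among them Gpd2, the mitochondrial dehydrogenase that runs opposite to Gpd1 in the shuttle, which rose by 1.94 ± 0.19 (adjusted p = 1.13e-05). Under saline 2 were higher and 2 lower in ko than in wt.

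Among 9 tested genes of fatty acid activation, 2 were higher and 6 were lower in ko under CL (median -0.39), 6 rose and 1 fell with CL in ko, and 7 rose and none fell with CL in wt. Slc27a1, a fatty acid transport protein with acyl-CoA synthetase activity, rose with CL by 0.94 ± 0.08 in ko (adjusted p = 5.78e-07) and by 1.38 ± 0.08 in wt (adjusted p = 3.93e-07), and was lower in ko at -1.47 ± 0.08 under CL (adjusted p = 8.97e-09). Under saline 1 gene was higher in ko, Acsl3 at 0.49 ± 0.13 (adjusted p = 0.0229), and 1 lower, Slc27a1 at -1.02 ± 0.08 (adjusted p = 1.12e-05). Of 8 tested droplet genes 2 were higher and 5 were lower in ko under CL (median -1.03), among them Pnpla3 at -1.39 ± 0.14 (adjusted p = 2.59e-06) and the droplet fusion gene Cidec at -1.32 ± 0.14 (adjusted p = 4.81e-06). With CL, 3 droplet genes rose and 2 fell in ko, against 5 that rose and 1 that fell in wt. The droplet coat gene Plin2 rose in both genotypes, by 1.41 ± 0.18 in ko (adjusted p = 2.79e-05) and 1.46 ± 0.18 in wt (adjusted p = 6.04e-05).

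The phospholipid branch leaves the route at phosphatidic acid and diacylglycerol. Of its 18 genes 2 were higher and 10 were lower in ko under CL (median -0.22), led by the cholinephosphotransferase Chpt1 at -1.76 ± 0.13 (adjusted p = 1.17e-07). With CL in ko 5 rose and 7 fell (27.2% and 27.5% of all tested genes did), and in wt 8 rose and 1 fell (19.6% and 17.1% of all). Of 12 regulators 2 were higher and 9 were lower in ko under CL (median -0.64). Ppara, a nuclear receptor for fatty acids, was at -2.12 ± 0.21 (adjusted p = 2.33e-06), and Pparg, the main nuclear receptor of fat cells, was at -0.74 ± 0.11 (adjusted p = 0.000112). Cebpa was lower in ko at -0.85 ± 0.10 under CL (adjusted p = 7.44e-06) and was the 1 regulator called under saline, at -0.42 ± 0.10 (adjusted p = 0.0143). Pparg and Cebpa are also among the 15 adipocyte markers. The regulators' CL responses were 3 higher and 5 lower in ko, against 6 higher and 1 lower in wt.

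With scaling by totals alone, counts of higher and lower genes in ko against wt under CL were 4 and 5 of the esterification genes, 7 and 6 of the supply genes, 4 and 4 of the activation genes, 2 and 5 of the droplet genes, 9 and 5 of the phospholipid genes and 3 and 4 of the regulators. Relative to the adipocyte markers they were 12 and 0, 14 and 0, 7 and 0, 5 and 1, 17 and 0, and 10 and 1 in the same order of lists. Of all tested genes, 52.4% were higher and 13.5% lower under the scaling by totals, and 90.0% were higher and 1.04% lower relative to the markers. Relative to the markers, Gpat4 (0.67), Pparg (0.79) and Cebpa (0.69) were called higher in ko, as were Agpat4 (2.70), Got1 (2.75) and Got2 (2.51), and Ppara (-0.61) was called lower. No call was made there for Aqp7 (0.29), Pcx (0.12), Slc27a1 (0.10), Pnpla3 (0.14), Cidec (0.21), Mogat2 (-0.18, adjusted p = 0.428) and Chpt1 (-0.22, adjusted p = 0.0535). With CL in wt, scaling by totals alone gave 1 higher and 4 lower esterification genes, 7 and 5 supply genes, 3 and 3 activation genes, 2 and 2 droplet genes, 3 and 9 phospholipid genes and 5 and 5 regulators, where 8.03% of all tested genes were higher and 48.6% lower. These counts under other scalings were chosen after the data were seen.

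**Figure D5:**
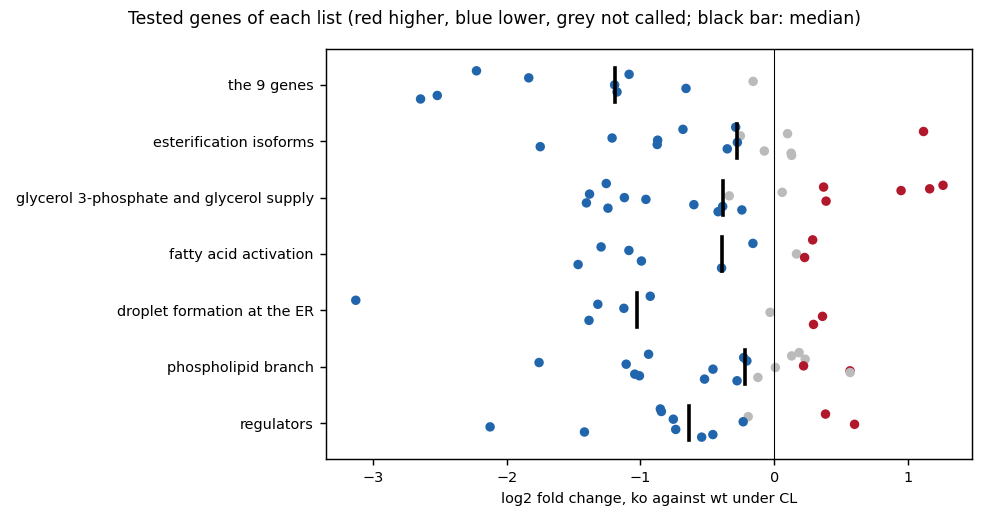
Each point is the log2 fold change of 1 tested gene, ko against wt under CL, for the 9 genes and the 6 further lists, with a black bar at each list's median. The median lies at -1.19 for the 9 genes, -1.03 for the droplet genes, -0.64 for the regulators and between -0.39 and -0.22 for the other 4 lists under TMM scaling. Relative to the adipocyte markers all 7 medians are positive, but all 7 lie below the median of all tested genes under that scaling.

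Across the 12 libraries the genes fell into patterns that are given as Pearson correlations of log2 CPM, without a test, since the libraries share group and scaling. Gpam, Agpat2 and Lpin1 correlated at 0.91 to 0.97 with each other, and Dgat2, Pck1 and Mogat1 at 0.93 to 0.96. Pck1 and Gpd1 stood at -0.03. Among 10668 other protein-coding genes, the closest to Gpam were Pex5, Psmd11 and Aldoa (0.98 to 0.99), and those closest to Agpat2 were Sfxn1, Pfkm and Ucp3 (0.98 each). Miga2 (0.99), Mmab (0.99) and Stx18 (0.98) were closest to Lpin1. Rbp7 (0.99), Mmd and Ermp1 (0.98 each) were closest to Dgat1, and Lgals12, Cd1d1 and Proca1 (0.99 each) to Dgat2. Ffar2 (0.99), Pfkfb3 and Plin4 (0.98 each) were closest to Pck1, and Tbrg4, Ppp1r3b and Cox10 (0.98 each) to Gpd1. Bhlhb9 and Cdk16 (0.99 each) were close to Mogat1. Gk had no partner above 0.94, which was Ganab, followed by Lcmt2 (0.93) and Aadac (0.92).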

How the data were processed

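The authors deposited raw read counts per gene for each of the 12 libraries, made with STAR and HTSeq on GRCm38, per the submitters' processing notes, and counted on the reverse strand, per the file names. No source used here gives their versions or the annotation release. Symbols, coordinates and exon lengths came from GENCODE M21, which matched 53274 of 53379 identifiers. The 5 summary lines of each file (12.5% to 17.2% of reads) were left out. The annotated genes that overlap a member are on the opposite strand.

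Counts were tested in R 4.3.3 with edgeR 4.0.16 (quasi-likelihood test, filterByExpr with a minimum count of 10, TMM, 1 mean per group, 8 residual degrees of freedom). P-values were adjusted by Benjamini-Hochberg over 16554 genes and called at 0.05. The test was also run on simulated data with balanced rises and falls in 1 group only. Such data cannot check the choice of scaling. A standard error is the size of the log2 fold change divided by the root of F, and intervals use 8 degrees of freedom, so both are approximate. Levels are CPM after TMM, also per kilobase of exon, which stands in for a planned TPM because it keeps the TMM scale. The closest genes were searched among those with a mean of at least 5 CPM, without provisional names, and 1 of them is not reported here. Depth was 21892817 to 27985019 gene counts, and chi-square per degree of freedom between the 12 pairs of libraries of 1 group was 7.45 to 60.3, so none repeats another. No count share or floor was needed. Groups follow the titles. Alternatives were other scalings, no filter, DESeq2 1.42.0, fewer groups, a replicate block and left-out libraries.

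All 9 members were named throughout, and up to 4 genes per list with the smallest adjusted p could be named. The members and lists were chosen with earlier results of these data known.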

Additional observations from a re-analysis of the deposited data

Results flagged for a closer look

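A test of whether the CL response differed by genotype singled out 8 of the 9 genes, and all 8 values, ko minus wt on the log2 scale, were negative, where 45.4% of all tested genes were called and 23.6% were more negative. Relative to adipocyte markers 3 of the 9, Agpat2, Pck1 and Mogat1, were still more negative and Gpd1 was more positive at 0.49. Under that scaling 1.82% of all tested genes were more negative and 61.9% more positive. For the enzymes of the glycerol phosphate route the difference was -0.79 for Gpam, -1.35 for Agpat2, -1.16 for Lpin1, -1.26 for Dgat1 and -0.89 for Dgat2. Mogat1, of the monoacylglycerol route, differed by -1.90. Of the supply genes, Pck1 differed by -1.66 and Gk by -1.35, while Gpd1 (-0.36) was not called under TMM. The 8 differences rest on unlike values in the groups: Gk overlapped between ko CL and ko saline and was lowest in wt saline, Pck1 and Dgat2 fell in ko and were not called in wt, Dgat1 and Mogat1 fell in ko and rose in wt, and Gpam, Agpat2 and Lpin1 were not called in ko and rose in wt.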

How the results depend on the processing

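Of 675 values of single genes under the alternatives, 620 kept their direction and side of the threshold, 12 lost a call, 15 gained one and 28 changed sign. The settings differed widely, and 324 of the values came from fits that left out 1 library, where 312 held. Relative to adipocyte markers only 20 of 45 values held, while 7 lost a call, 4 gained one and 14 changed sign. With scaling by totals alone 35 of 45 held. DESeq2 size factors and the replicate block changed no call of a member. The block's counts of the 9 genes were 5 for CL in ko, 7 for CL in wt, 8 for ko against wt under CL, 5 under saline and 8 for the difference of the responses, as without it. Deviations of same-numbered libraries from their group means showed no clear likeness (18 correlations of -0.355 to 0.176, 2 above 0.1). The numbers were not used as pairs, and whether they mark a shared origin was not tested.

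Scaling by totals alone moved the median of all genes to -0.33 for CL in wt, 0.39 for ko against wt under CL, 0.15 under saline and 0.20 for the difference. It called 9377 genes for CL in wt (1329 higher, 8048 lower), where TMM called 6085 (3249 higher, 2836 lower), and 4239 for ko against wt under saline (3733 higher, 506 lower), where TMM called 2391. The splits were 3701 higher and 5475 lower for CL in ko, 8667 and 2237 for ko against wt under CL and 5386 and 2267 for the difference. Signs changed for Gk with CL in ko (-0.074), Dgat2 with CL in wt (-0.17), Gk between ko and wt under CL (0.23) and Lpin1 under saline (0.14). Of 36 group levels of the 9 genes, 16 moved by 1 SD or more.

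Scaling by adipocyte markers called 13115 genes for CL in ko (12262 higher, 853 lower), 3240 for CL in wt (1700 higher, 1540 lower), 15073 for ko against wt under CL, 12342 under saline (12188 higher, 154 lower) and 10555 for the difference (10253 higher, 302 lower), and 4 of the 9 genes for the difference. Signs changed for Lpin1 (0.55), Dgat1 (0.059) and Dgat2 (0.12) with CL in ko, for Gpam (0.33), Lpin1 (0.36), Dgat1 (0.45), Gpd1 (0.84) and Gk (1.37) between ko and wt under CL, for Gpam (0.24), Lpin1 (0.63), Gpd1 (0.35) and Mogat1 (0.021) under saline, and for Gpam (0.082) and Gpd1 (0.49) in the difference. For both scalings the cause was not tested.

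Leaving out 1 library of the groups compared gave 5 to 7, 7 to 7, 7 to 8, 5 to 5 and 8 to 8 of the 9 genes for CL in ko, CL in wt, ko against wt under CL, under saline and the difference. Without ko CL 1, which is in neither saline group but shares the estimate of the spread, 6 were called under saline (1 higher, 5 lower). In that fit 9.8% of all tested genes were higher and 8.4% lower under saline. With 1 library of the groups compared left out, all genes called were 8022 to 8593, 4812 to 5392, 8462 to 8974, 1082 to 2255 and 6804 to 7419 in the same order. Without wt saline 1 and ko CL 2 together, the saline count was 2342. The saline count of 2391 fell to 1347 without ko saline 1, 1136 without ko saline 2, 1271 without wt saline 2 and 1082 without wt saline 3. Signs changed only in values that were not called. They ranged from -0.063 to 0.015 for Lpin1 under saline, from -0.21 to 0.19 for Gk with CL in ko, from -0.37 to 0.027 for Gk under CL and from -0.066 to 0.37 for Agpat2 with CL in ko, the last of which was called at its upper end. Gk with CL in ko was at -0.010 without a filter and -0.027 without wt saline 1 and ko CL 2. Without these 2 libraries, ko CL 2 with B cell markers summing to 2601 CPM and wt saline 1 with ciliated epithelial markers at 32.0 CPM, the counts of the 9 genes were 5, 7, 8, 5 and 8. Depth does not limit the 9 genes, whose lowest level was 9.68 CPM. With 3 pools a group, however, a change that was not called may still be real, of a size anywhere in its interval.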
